A study of Mus musculus with 6 samples.

Results

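Twist1, Twist2, Snai1, Snai2, Zeb1, Zeb2, Prrx1 and Prrx2 encode transcription factors of mesenchymal cells, and their transcripts were followed in mouse lung on 1-colour Agilent arrays. These 8 genes, of 22909 genes named on the array, were taken by name, with every non-control probe whose transcript accession maps to them in the RefSeq gene table. They have 13 probes of 56605 on the array, and all 8 could be tested in each comparison. The samples were of 3 kinds, all from male mice, with 2 arrays each. Myofibroblasts contract and lay down matrix after injury, and here were CD49e+ Sca1- Lin- cells taken after bleomycin, a drug that injures the lung and leads to fibrosis. The steady-state fibroblasts were CD140a+ Lin- cells of mice without bleomycin. Homogenates of the whole lung of untreated mice, which hold every cell type of the organ, served as controls. A set was 50000 cells and 5.8 ng of RNA was labelled per array. Gate and bleomycin changed together between the sorted groups and cannot be told apart. Dose and time of bleomycin, and age and strain of the mice, were not found in the labels. Whether both arrays of a group stem from different animals is not stated either, so the p-values reflect a spread that may be technical.

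The Twist proteins are basic helix-loop-helix factors. They bind E-box DNA as dimers with each other or with the E proteins Tcf3, Tcf4 and Tcf12, and the Id proteins, which lack a DNA-binding region, take E proteins out of these dimers. Snai1 and Snai2 are zinc-finger repressors, and Zeb1 and Zeb2 carry a cluster of zinc fingers near each end. Both families bind the E-box CACCTG, recruit corepressors and lower the transcription of E-cadherin and other genes of epithelial junctions. Prrx1 and Prrx2 are paired-related homeodomain factors of embryonic limb, face and lung mesenchyme. All of these factors are studied in epithelial-to-mesenchymal transition, and several are expressed in resident mesenchymal cells as well.

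Levels are given as the processed spot signal divided by the 75th percentile of its array. The level of 1 probe is compared between samples only, never with that of another probe. Differences are on the log2 scale with limma's standard error, and a gene was called when the p-value adjusted over all genes tested in the comparison (Benjamini-Hochberg) was under 0.05. For a probe well above background on neither array of a group, the signal there was raised to the array's lowest signal well above background. A signal already higher was kept, and the fold is given as at least the resulting value. Such bounds hold for the main background treatment only, and normexp correction can give smaller differences. Each gene was read by its brightest probe on average. Spread within a group was widest for fibroblasts: 23.5% of their genes differed over 2-fold between the arrays, against 7.84% for myofibroblasts and 2.83% for homogenates.

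Other cell types were read from listed marker genes. The summed level of 8 endothelial markers was 0.522 and 0.741 in myofibroblasts, 2.78 and 2.13 in fibroblasts and 81.6 and 80.2 in homogenates. Of 11 leukocyte markers, Ptprc (CD45) was at 0.0117 and 0.0674 in myofibroblasts, 0.00840 and 0.00971 in fibroblasts and 23.4 and 23.7 in homogenates, whereas the list's sum, led by Itgam, was 185 and 176, 193 and 176, and 271 and 282 in the same order of groups. The sum of 9 epithelial markers was 11.7 and 17.6 in myofibroblasts, 121 and 72.0 in fibroblasts and 857 and 845 in homogenates, and Scgb1a1 of airway club cells made up most of it on the arrays of each group. The 8 mesenchymal markers summed to 1023 and 1063 in myofibroblasts, 577 and 423 in fibroblasts and 50.002 and 44.3 in homogenates, led by Col1a2 on each array. Between the sorted groups 2 of the 8 were called higher and 2 lower in myofibroblasts, with a median log2 difference of -0.08. Of all tested genes 9.22% were called higher and 8.02% lower. The 6 markers of cycling cells summed to 51.0 and 46.2 in myofibroblasts, 1.21 and 0.986 in fibroblasts and 6.26 and 6.74 in homogenates. The 8 smooth muscle and pericyte markers summed to 59.9 and 73.8, 11.3 and 9.26, and 12.8 and 15.5 in the same order. Of 7 tested between the sorted groups, 5 were called higher in myofibroblasts and 1, Kcnj8, lower. Kcnj8 was at 1.14 and 1.52 in myofibroblasts, and at 9.03 and 5.74 in fibroblasts, where it made up most of the sum. The part that these lists play in the differences of the Twist, Snail, Zeb and Prrx genes was not tested. In bulk samples such as these, fewer cells of a type and less RNA per cell cannot be told apart.

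Between myofibroblasts and fibroblasts, 1 of the 8 genes passed the test: Twist2 was lower in myofibroblasts. By unadjusted p under 0.05, 1 of the 8 was higher and 2 were lower, where 5822 of the 16006 genes tested passed in either direction. Of the 16006 genes tested, 9.22% were called higher and 8.02% lower. The arrays of the sorted groups did not overlap for 4 of the 8 genes (Twist1, Twist2, Snai2 and Zeb2), while 63.1% of all tested genes did not overlap. The median log2 difference was 0.04 over the 8 genes and -0.06 over all genes tested. Against homogenate, 6 of the 8 were called higher in fibroblasts and 3 in myofibroblasts, and 0 lower. The same counts had an unadjusted p under 0.05 by limma, as had 5533 of 17063 and 7134 of 17163 tested genes in either direction. Twist1 and Snai1, among both counts, were not well above background on either homogenate array. They passed the filter through the sorted groups alone, so they could hardly come out lower. With all 4 arrays required above background, 4 were called for fibroblasts and 1 for myofibroblasts. Over all tested genes 8.09% were called higher and 11.8% lower in fibroblasts, and 11.9% higher and 15.0% lower in myofibroblasts. The groups did not overlap for 6 of the 8 genes between fibroblasts and homogenate and for 7 between myofibroblasts and homogenate, beside 62.8% and 77.5% of all tested genes. The median log2 difference of the 8 genes was 2.69 for fibroblasts against homogenate, or 2.31 with the bounded genes at their bound, and 0.76 for myofibroblasts against homogenate, beside 0.03 and -0.01 over all genes tested. The comparisons with homogenate share the homogenate arrays. Another scaling moves the split of all calls: called genes were higher in myofibroblasts than in fibroblasts in 53.5%, but in 64.6% with median scaling and 25.4% in the authors' normalized table, and against homogenate in 44.3%, 64.9% and 20.6%.

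**Figure D1:**
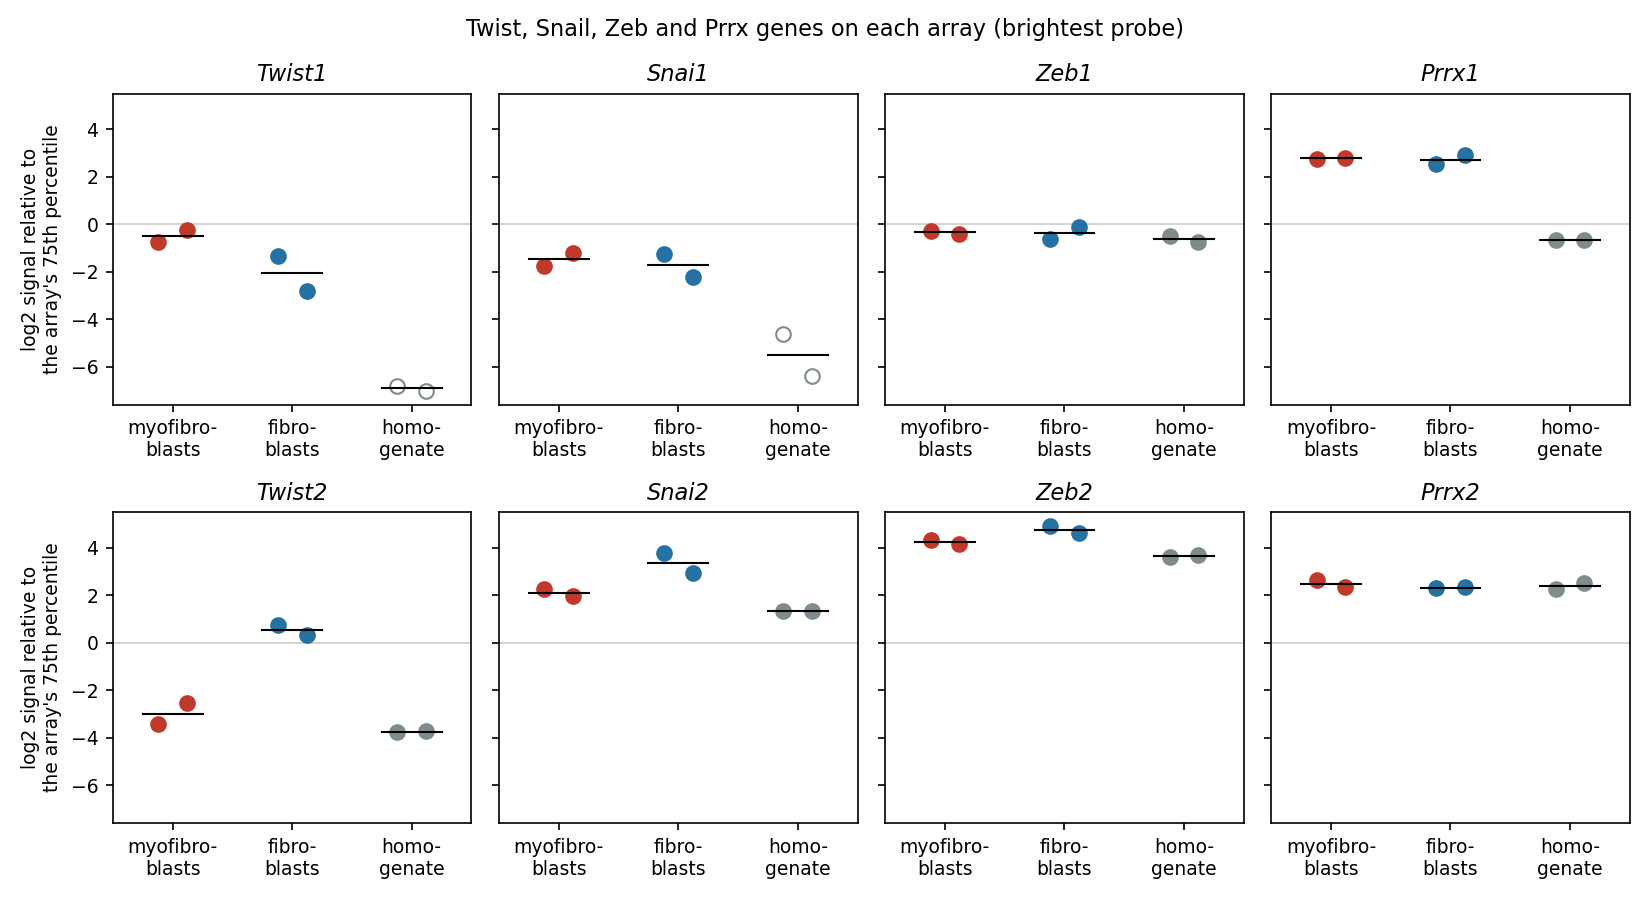
Level of each gene on each array by its brightest probe (vertical axis, log2 of the signal relative to the array's 75th percentile), for myofibroblasts (red), fibroblasts (blue) and homogenates (grey). Each point is 1 array, the line is the mean of 2 and open points were not well above background. Twist1 was highest in myofibroblasts, Twist2 stood out in fibroblasts, Prrx1 was high in both sorted groups, and the Zeb1 and Prrx2 probes lay at similar levels in all 3 groups.

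Twist1 and Twist2 ran in opposite directions between the sorted groups. Twist1 was at 0.604 and 0.853 in myofibroblasts, 0.397 and 0.145 in fibroblasts and 0.00895 and 0.00785 in homogenates, where neither array was well above background. The 3 groups did not overlap, with myofibroblasts highest, but the fibroblast arrays stood 2.75-fold apart. The log2 difference between myofibroblasts and fibroblasts was 1.58 (SE 0.52, n = 2 arrays each) and did not pass the test (limma adjusted p = 0.0898). Without fibroblast replicate 1 it was 2.31 with an adjusted p of 0.0239, a call that rests on leaving out that array. Against homogenate Twist1 was called at least 18.4-fold higher in myofibroblasts (limma adjusted p = 9.21e-04) and at least 6.15-fold higher in fibroblasts (adjusted p = 0.00258). These folds depend on how background is treated: with normexp correction the log2 differences were 2.08 and 1.15, and both stayed called.

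Twist2, the paralogue of Twist1 also known as Dermo1, was at 0.0925 and 0.172 in myofibroblasts, 1.67 and 1.27 in fibroblasts and 0.0739 and 0.0763 in homogenates. Both fibroblast arrays lay above all 4 others, and the myofibroblast arrays lay just above the homogenates. Twist2 was 11.6-fold lower in myofibroblasts than in fibroblasts, a log2 difference of -3.53 (SE 0.37; limma adjusted p = 0.00507). The call held in each of the 19 alternative settings, with log2 differences between -3.98 and -2.18. Twist2 was 19.4-fold higher in fibroblasts than in homogenate (log2 4.28, SE 0.37; limma adjusted p = 0.00131). In myofibroblasts against homogenate the difference of 0.75 (SE 0.37) did not pass (adjusted p = 0.188), with a 95% interval from -0.18 to 1.68.

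Set against each other within arrays, Twist1 changed by 5.11 log2 units more than Twist2 between myofibroblasts and fibroblasts. The log2 ratio of the Twist1 to the Twist2 signal was 2.71 and 2.31 in myofibroblasts, -2.08 and -3.13 in fibroblasts and -3.05 and -3.28 in homogenates, and since the probes differ only its differences between groups can be read. Both myofibroblast ratios lay above both fibroblast ratios. The homogenate ratios rest on a Twist1 signal not well above background, so no size is given against homogenate. With 2 arrays a group the two-sided exact permutation test cannot go below p = 0.333, which the difference between the sorted groups reached (0.4 after adjustment over the 12 paralogue comparisons). Over the alternative settings the excess between the sorted groups ran from 3.11 to 5.64.

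The 250 bases before the RefSeq start of Twist1 and of Twist2 (GRCm38.p6, printed 5′ to 3′ along the gene's own strand) are shown because this pair parted between the sorted groups. The Twist1 window is chr12:33957421-33957670 (plus strand) and the Twist2 window chr1:91801211-91801460 (plus strand). They were searched on both strands for the general E-box CANNTG and for CACCTG, which is 1 form of it. Neither window holds either motif, so no letter is in capitals.
Twist1: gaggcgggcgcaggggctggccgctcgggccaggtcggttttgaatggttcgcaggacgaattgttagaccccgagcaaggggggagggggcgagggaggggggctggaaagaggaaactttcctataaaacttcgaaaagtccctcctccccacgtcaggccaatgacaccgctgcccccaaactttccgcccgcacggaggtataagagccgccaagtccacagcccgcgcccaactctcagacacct
Twist2: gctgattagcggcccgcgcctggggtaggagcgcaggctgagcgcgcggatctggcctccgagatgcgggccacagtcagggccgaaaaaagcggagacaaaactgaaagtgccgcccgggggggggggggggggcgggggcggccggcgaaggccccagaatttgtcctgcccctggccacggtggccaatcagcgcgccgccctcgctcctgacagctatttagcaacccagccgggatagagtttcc
CANNTG is present in 69.3% of the 27025 genes with such a window in the table and CACCTG in 19.4%. GC content is 62.4% in the Twist1 window, with 18 CG dinucleotides, and 68.8% in the Twist2 window, with 23. Windows were present for 6 of the 8 genes and not for Snai2 and Zeb1. Of the 6, 1 holds CANNTG.

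Snai1 and Snai2 differed in their range over the groups. Snai1 was at 0.299 and 0.436 in myofibroblasts, 0.426 and 0.218 in fibroblasts and 0.0411 and 0.0120 in homogenates, where neither array was well above background. The sorted groups overlapped, and both lay above the homogenates. The log2 difference between myofibroblasts and fibroblasts was 0.25 (SE 0.67; limma adjusted p = 0.812), with a 95% interval from -1.42 to 1.91. Snai1 was called at least 9.27-fold higher in myofibroblasts than in homogenate (limma adjusted p = 0.0101) and at least 7.82-fold higher in fibroblasts (adjusted p = 0.0142). With normexp correction these log2 differences were 1.39 and 1.25. The first call ended without myofibroblast replicate 2 (adjusted p = 0.0618), and the second without fibroblast replicate 1 (0.0726) or homogenate replicate 2 (0.0517).

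The Snai1 window, chr2:167537945-167538194 (plus strand), is the one among the 8 genes' windows that holds an E-box. Its single CACCTG, in capitals, begins 126 bases before the RefSeq start. It is shown because it is the hexamer that Snail and Zeb proteins bind.
Snai1: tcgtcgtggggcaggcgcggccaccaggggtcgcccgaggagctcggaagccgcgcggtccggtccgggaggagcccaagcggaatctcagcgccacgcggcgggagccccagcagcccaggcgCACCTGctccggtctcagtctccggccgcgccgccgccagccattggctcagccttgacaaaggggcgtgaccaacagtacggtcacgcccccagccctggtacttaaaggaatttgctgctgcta
The match is a description of these letters, and no binding was measured.

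Snai2, known as Slug, was at 4.80 and 3.94 in myofibroblasts, 13.7 and 7.62 in fibroblasts and 2.57 and 2.504 in homogenates. The groups did not overlap, and fibroblasts were highest. Snai2 was called higher in fibroblasts than in homogenate, by 4.02-fold (log2 2.01, SE 0.35; limma adjusted p = 0.0138). The call ended without homogenate replicate 1 (adjusted p = 0.0905) or 2 (0.0986), at nearly the same difference. Between myofibroblasts and fibroblasts the log2 difference was -1.23 (SE 0.35; adjusted p = 0.0665). It passed without fibroblast replicate 2 (-1.66, adjusted p = 0.0141), and under 4 other settings with adjusted p from 0.0286 to 0.0462. In myofibroblasts against homogenate it was 0.78 (SE 0.35; adjusted p = 0.157), and passed without either fibroblast array (adjusted p = 0.0380 and 0.0387). Snai1 changed by 1.48 log2 units more than Snai2 between the sorted groups, with an exact permutation p of 0.333, the smallest possible. Against homogenate no size is given, as Snai1 was not well above background there.

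**Figure D2:**
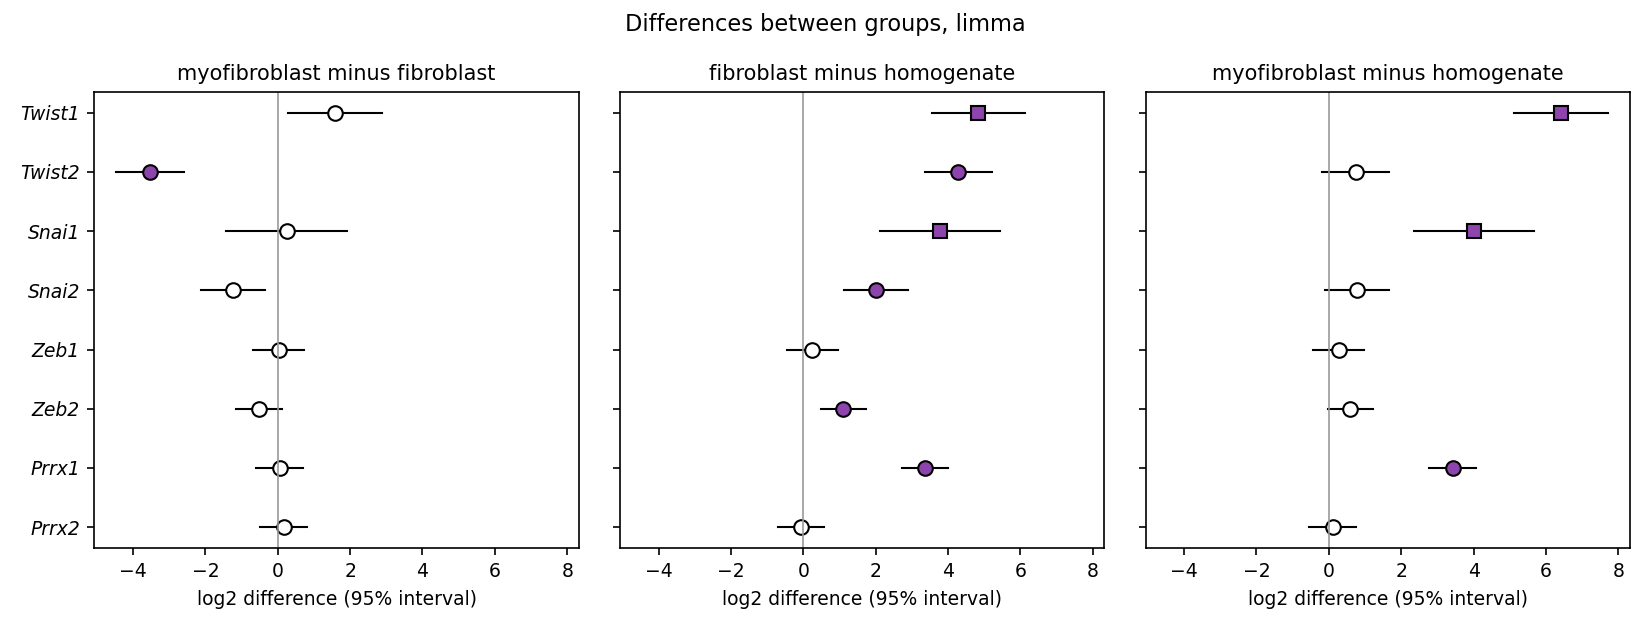
Log2 difference of each gene by its brightest probe in the 3 comparisons (horizontal axis), with limma's 95% interval. Filled symbols were called at an adjusted p under 0.05, and squares mark genes not well above background in homogenate, whose folds are bounds. Twist2 is the single filled symbol between the sorted groups, at -3.53.

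Zeb1 varied little over the 3 groups. Its brighter probe was at 0.824 and 0.757 in myofibroblasts, 0.655 and 0.919 in fibroblasts and 0.707 and 0.598 in homogenates. The myofibroblast values lay between those of the fibroblasts, and just above both homogenates. The log2 difference between myofibroblasts and fibroblasts was 0.03 (SE 0.28; limma adjusted p = 0.953), with a 95% interval from -0.68 to 0.73. Against homogenate it was 0.28 in myofibroblasts (adjusted p = 0.495) and 0.25 in fibroblasts (adjusted p = 0.588). The other Zeb1 probe, to the same transcript, was at 0.717 and 0.487 in myofibroblasts, 0.985 and 1.01 in fibroblasts and 0.618 and 0.526 in homogenates. It was highest in fibroblasts, with log2 differences of -0.76 for myofibroblasts against fibroblasts (adjusted p over all probes = 0.133, limma) and 0.81 for fibroblasts against homogenate (0.151), neither called.

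Zeb2 has 3 probes to 1 transcript, and each had its highest mean in fibroblasts. The brightest was at 20.2 and 17.8 in myofibroblasts, 30.2 and 24.4 in fibroblasts and 12.4 and 12.8 in homogenates, with no overlap. Zeb2 was called 2.16-fold higher in fibroblasts than in homogenate (log2 1.11, SE 0.25; limma adjusted p = 0.0322). That call ended without either homogenate array (adjusted p = 0.209 and 0.198) or either myofibroblast array (0.0631 and 0.0632), which are not in the comparison but set the spread. The log2 difference of myofibroblasts was -0.52 from fibroblasts (SE 0.25; adjusted p = 0.197) and 0.59 from homogenate (SE 0.25; adjusted p = 0.137). Quantile normalization brought the first to -1.06 with an adjusted p of 0.0446 and turned the second to -0.08.

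Of the other Zeb2 probes, A_52_P596008 was at 10.8 and 10.9 in myofibroblasts, 34.8 and 15.9 in fibroblasts and 8.80 and 7.92 in homogenates. Fibroblast replicate 1 stood 2.19-fold above replicate 2. The log2 differences were -1.11 between myofibroblasts and fibroblasts (limma adjusted p over all probes = 0.121) and 1.49 between fibroblasts and homogenate (0.0776). Both passed without fibroblast replicate 2, at -1.68 (adjusted p = 0.0154) and 2.06 (adjusted p = 0.0119). The dimmest probe, A_52_P526372, was at 0.613 and 0.552 in myofibroblasts, 0.746 and 0.704 in fibroblasts and 0.553 and 0.322 in homogenates, and its differences were not called. Zeb2 is also expressed in macrophages and other leukocytes. Ptprc was 23.4 and 23.7 in homogenates but under 0.1 on each sorted array, as given above. Of 10 leukocyte markers tested, 8 were called lower than homogenate in each sorted group. Csf1r was instead at 20.1 and 19.5 in myofibroblasts, 18.6 and 24.4 in fibroblasts and 20.9 and 21.9 in homogenates. The part of leukocytes in the Zeb2 signal was not tested.

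Prrx1 was high in both kinds of sorted cell. Its brighter probe was at 6.72 and 6.98 in myofibroblasts, 5.77 and 7.58 in fibroblasts and 0.640 and 0.638 in homogenates. The myofibroblast values lay between the fibroblast ones, and all 4 lay above the homogenates. Prrx1 was called 10.7-fold higher in myofibroblasts (log2 3.42, SE 0.26; limma adjusted p = 7.27e-04) and 10.3-fold higher in fibroblasts (log2 3.37, SE 0.26; adjusted p = 8.83e-04) than in homogenate. Both calls held in all 19 alternative settings. Between myofibroblasts and fibroblasts the log2 difference was 0.05 (SE 0.26; adjusted p = 0.899), with a 95% interval from -0.59 to 0.69.

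The other Prrx1 probe, A_55_P2131920, targets another RefSeq transcript of the gene. It was at 1.41 and 1.14 in myofibroblasts, 4.61 and 1.94 in fibroblasts and 0.192 and 0.151 in homogenates. Both fibroblast arrays exceeded both myofibroblast arrays, but lay 2.37-fold apart. Against homogenate it was called 7.46-fold higher in myofibroblasts (log2 2.90; limma adjusted p over all probes = 0.0123) and 17.6-fold higher in fibroblasts (log2 4.14; 0.00479). The myofibroblast call ended when any 1 of the 4 arrays compared was left out (adjusted p from 0.0528 to 0.0900). The log2 difference between myofibroblasts and fibroblasts was -1.24 (adjusted p = 0.123), and passed at -1.86 without fibroblast replicate 2 (adjusted p = 0.0213). Over all probes tested, 16.1% were called for myofibroblasts against fibroblasts, 14.5% for fibroblasts against homogenate and 22.0% for myofibroblasts against homogenate. Whether the transcripts of Prrx1 differ in their change was not tested.

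The 2 probes of Prrx2, to 1 transcript, did not behave alike. The brighter was at 6.27 and 5.06 in myofibroblasts, 4.96 and 5.09 in fibroblasts and 4.79 and 5.75 in homogenates. The 3 groups overlapped, with log2 differences of 0.16 between myofibroblasts and fibroblasts (SE 0.26; limma adjusted p = 0.676), 0.10 between myofibroblasts and homogenate (0.791) and -0.06 between fibroblasts and homogenate (0.895). The dimmer probe, A_55_P2417569, was at 0.0838 and 0.0996 in myofibroblasts, 0.0438 and 0.0402 in fibroblasts, where replicate 2 was not well above background, and 0.00825 and 0.00729 in homogenates, both not well above background. Its groups did not overlap, and its order was that of Twist1.

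The dimmer Prrx2 probe was called at least 2.34-fold higher in myofibroblasts than in homogenate (limma adjusted p over all probes = 0.00111). Between myofibroblasts and fibroblasts its log2 difference was 1.12 (SE 0.25; adjusted p = 0.0416), a call lost in 13 of its 17 alternative settings, among them 5 of the 6 that leave out an array (adjusted p up to 0.158). With the mean over both probes standing for the gene, Prrx2 was called higher against homogenate in myofibroblasts (limma adjusted p = 0.00267) and in fibroblasts (adjusted p = 0.0140), so the choice of probe decides these calls. That mean includes the dimmer probe's background signal in homogenate, so no size is given. Prrx1 changed by 3.32 log2 units more than the brighter Prrx2 probe for myofibroblasts against homogenate and by 3.43 for fibroblasts (exact permutation p = 0.333 each, the smallest possible).

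**Figure D3:**
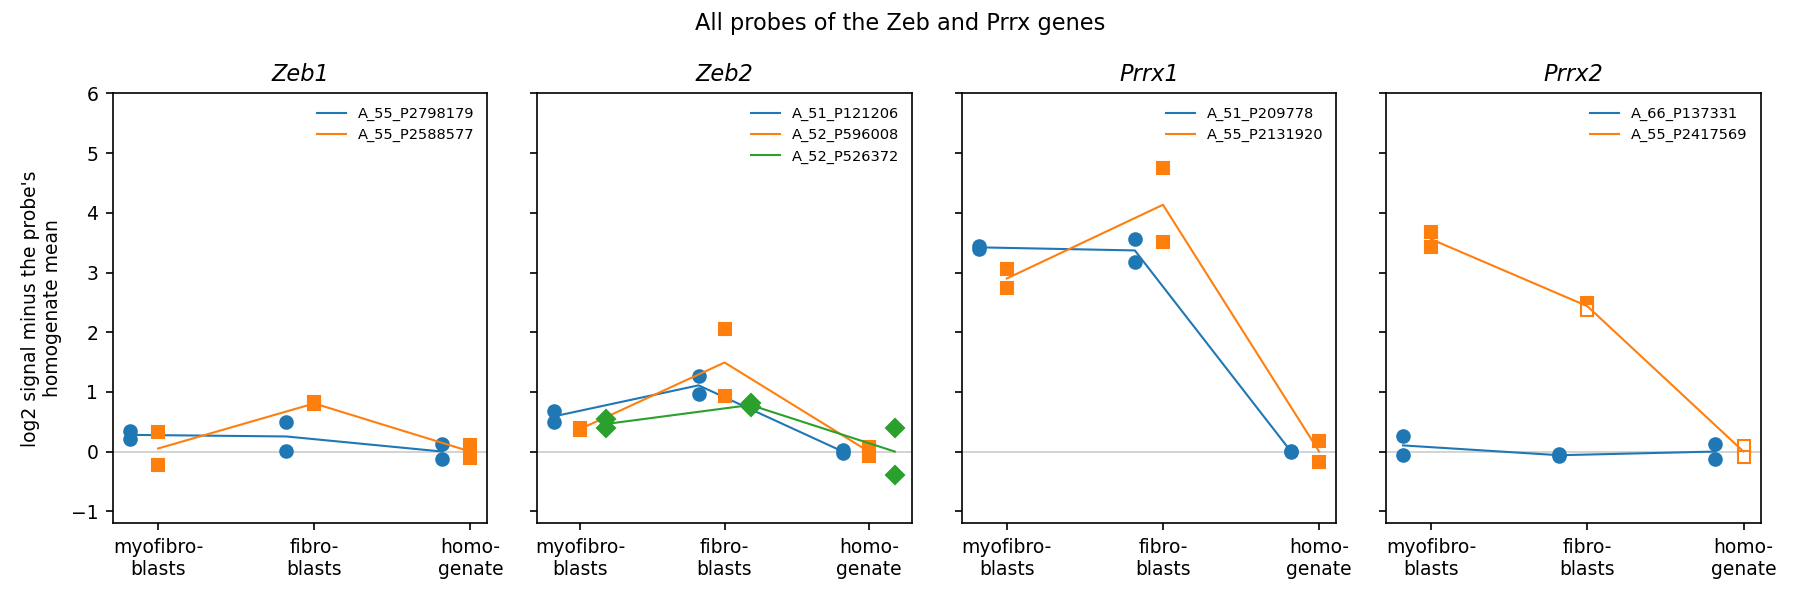
Every probe of the Zeb and Prrx genes (vertical axis, log2 signal minus the probe's own homogenate mean), by group. Points are arrays, lines join the group means and open points were not well above background. The 3 Zeb2 probes peaked in fibroblasts, the Prrx1 probes were raised in both sorted groups, and the Prrx2 probes parted, 1 flat and 1 highest in myofibroblasts.

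The genes whose pattern over the 6 arrays came nearest to a member's were sought among 2328 named genes above background on all arrays with a log2 SD of at least 1. Likeness is the root mean square difference of the centred log2 values. It is a description over arrays that fall into 3 groups. For Twist2 (SD 2.07) the nearest were Apod at 0.13, Gdf10 at 0.25 and Fbln1 at 0.27, genes for an apolipoprotein, a secreted growth factor and a matrix fibulin. Apod was at 1.25 and 2.44 in myofibroblasts, 20.2 and 17.0 in fibroblasts and 0.851 and 0.855 in homogenates. For Snai2 (SD 0.95) they were Errfi1 at 0.10, a feedback inhibitor of the EGF receptor, Stambpl1 at 0.14 and the transcription factor Nfib at 0.15. For Prrx1 (SD 1.76) they were Olfml2b at 0.19, Sertad4 at 0.21 and Nhs at 0.24. Zeb2, Zeb1 and Prrx2 had an SD of 0.51, 0.22 and 0.15, so that a candidate with an SD of at least 1 could not come close, and no likeness is given for them. Twist1 and Snai1 were not above background in homogenate and were left out.

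Of the 7 dimer partners and inhibitors of Twist, 1 was called between the sorted groups. All tested genes were called higher in 9.22% and lower in 8.02%. Id4, an inhibitor of E proteins, was at 0.118 and 0.0737 in myofibroblasts, 0.770 and 0.554 in fibroblasts and 0.3002 and 0.170 in homogenates. It was lower in myofibroblasts than in fibroblasts by a log2 difference of -2.81 (SE 0.42; limma adjusted p = 0.0131), with the same order of sorted groups as Twist2. The other 6 were not called, and the list's median was 0.46. In fibroblasts against homogenate Tcf4, an E protein, was higher at 1.08 (SE 0.27; adjusted p = 0.0428) and Id1 lower at -1.30 (SE 0.25; adjusted p = 0.0190). Over all tested genes 8.09% were called higher and 11.8% lower in fibroblasts against homogenate. Of the 6 settings that leave out an array, 5 ended the Tcf4 call, 2 that of Id1 and 1 that of Id4. In myofibroblasts against homogenate 0 of the 7 were called by limma and 4 had an unadjusted p under 0.05. Of all 17163 genes tested there, 11.9% were called higher and 15.0% lower, and 7134 had an unadjusted p under 0.05. The largest difference of the 7 was 1.96 for Id3 (SE 1.31, limma adjusted p = 0.310).

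Of 12 corepressors used by Snail and Zeb proteins, 0 were called between the sorted groups by limma. The share over all tested genes was 9.22% higher and 8.02% lower. By an unadjusted p under 0.05, 2 corepressors were higher, where 5822 of the 16006 genes tested passed in either direction. Ajuba, a LIM protein that links Snail to other repressors, had the largest difference, 1.73 (SE 0.51; adjusted p = 0.0711), with fibroblast replicate 1 not well above background. It passed (adjusted p = 0.0150) without fibroblast replicate 2, when the fibroblast array that remains is that dim one, so no size is given. Wtip, a LIM protein of the Ajuba family, was called higher in fibroblasts (1.74, SE 0.29; limma adjusted p = 0.0117) and in myofibroblasts (1.32, SE 0.29; adjusted p = 0.0249) than in homogenate, calls that 2 and 3 of the 6 omissions of an array ended. Ctbp1, the corepressor that Zeb proteins bind directly, was called higher in myofibroblasts than in homogenate at 1.10 (SE 0.29; adjusted p = 0.0405), a call that 4 of the 6 omissions of an array ended. The number of corepressors called moved with the array left out, as did the number over all genes. The calls against homogenate ended without either homogenate array. More corepressors were called between the sorted groups without fibroblast replicate 2. More were also called in myofibroblasts against homogenate without either fibroblast array. The list's medians were 0.41 between the sorted groups, 0.15 for fibroblasts and 0.64 for myofibroblasts against homogenate.

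Snail protein is short-lived, and 11 genes of its phosphorylation and breakdown were listed. Pak1, a kinase that phosphorylates Snail, was at 1.44 and 1.41 in myofibroblasts, 0.240 and 0.263 in fibroblasts and 0.568 and 0.396 in homogenates. It was the 1 member of 11 called between the sorted groups, where 9.22% of all tested genes were called higher and 8.02% lower. Pak1 was higher in myofibroblasts by 2.51 (SE 0.28; limma adjusted p = 0.00575), and the call held in all 19 alternative settings. Pak1 was also higher in myofibroblasts than in homogenate at 1.59 (SE 0.28; adjusted p = 0.0122), a call that 3 of the 6 omissions of an array ended. Btrc, the ubiquitin ligase subunit that recognises phosphorylated Snail, was lower in myofibroblasts than in homogenate at -1.67 (SE 0.41; adjusted p = 0.0331), and Ctdspl, a phosphatase of the family that acts on Snail, was higher in fibroblasts at 1.06 (SE 0.26; adjusted p = 0.0440). These last 2 calls ended in 4 and 5 of the 6 omissions of an array.

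Related factors of the same families were mostly dim. Of 12 listed, 11 had a named probe and 6, 7 and 8 were tested between the sorted groups, for fibroblasts and for myofibroblasts against homogenate. Alx4, a paired-type homeodomain factor of limb and face mesenchyme, was the 1 member called. It was called higher in myofibroblasts than in fibroblasts and than in homogenate, as were 9.22% and 11.9% of all tested genes. It was at 0.244 and 0.568 in myofibroblasts, 0.0718 and 0.0306 in fibroblasts, where replicate 2 was not well above background, and 0.0101 and 0.00875 in homogenates, both below it. Its log2 difference between myofibroblasts and fibroblasts was 2.99 (SE 0.57; limma adjusted p = 0.0250), ended by 3 of the 6 omissions of an array, and it was at least 9.55-fold higher in myofibroblasts than in homogenate (adjusted p = 0.00229). In fibroblasts against homogenate 0 of 7 were called by limma or had an unadjusted p under 0.05. Over all tested genes 8.09% were called higher and 11.8% lower. Ferd3l, not well above background on either fibroblast array, had a bound of at least 1.22-fold lower (limma adjusted p = 0.541).

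Epithelial genes that Snail and Zeb proteins are known to repress, 18 in the list, set both sorted groups apart from homogenate. In myofibroblasts 9 of the 18 were called lower than in homogenate, and in fibroblasts also 9, where 15.0% and 11.8% of all tested genes were. None was called higher by limma, nor by an unadjusted p under 0.05. Only 10 of the 18 could be tested between the sorted groups. The others passed the background filter through homogenate alone, so they could hardly come out higher. The list's medians were -3.72 for myofibroblasts and -4.11 for fibroblasts, or -3.24 and -3.002 with bounded genes at their bound. The summed level of the list was 2.95 and 3.15 in myofibroblasts, 3.42 and 3.46 in fibroblasts and 17.8 and 17.96 in homogenates. The summed epithelial markers given above were also lower in both sorted groups, and their part in this was not tested. Between myofibroblasts and fibroblasts 10 of the 18 could be tested and 0 were called by limma or had an unadjusted p under 0.05. Over all tested genes 9.22% were called higher and 8.02% lower. Epcam was furthest from 0 at -0.47 (SE 0.25, limma adjusted p = 0.232). Without myofibroblast replicate 1, 14 could be tested and 2 were called higher.

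Cdh1, which encodes E-cadherin, was at 0.00937 and 0.0247 in myofibroblasts and 0.00975 and 0.0105 in fibroblasts, with no array well above background, against 0.3004 and 0.314 in homogenates. It was at least 7.60-fold lower in myofibroblasts (limma adjusted p = 0.00251) and at least 7.17-fold lower in fibroblasts (adjusted p = 0.00189) than in homogenate. Krt19, a keratin of simple epithelium, was at 0.0200 and 0.0786 in myofibroblasts, 0.0129 and 0.0104 in fibroblasts and 3.90 and 3.80 in homogenates, and it was at least 89.7-fold lower in fibroblasts than in homogenate (limma adjusted p = 9.00e-04). In myofibroblasts, where 1 array was above background, its log2 difference was -6.60 (SE 0.64; adjusted p = 0.00165). Ocln, the tight-junction protein occludin, was at least 16.6-fold lower in myofibroblasts (adjusted p = 0.00188) and at least 15.6-fold lower in fibroblasts (adjusted p = 0.00140), and Cldn3, a claudin, was at least 19.5-fold lower in myofibroblasts (adjusted p = 0.00781). Krt8 was lower in fibroblasts at -5.76 (SE 0.73; adjusted p = 0.00458), Cldn3 at -5.23 (SE 0.86; adjusted p = 0.0111) and Epcam lower in myofibroblasts at -5.55 (SE 0.25; adjusted p = 1.99e-04). Krt8 was not well above background on fibroblast replicate 2, nor Epcam on myofibroblast replicate 2, so the sizes of Krt8 and Epcam include background signal. The Cldn3 calls ended without homogenate replicate 2 (adjusted p = 0.0511 for myofibroblasts and 0.0679 for fibroblasts), and the fibroblast one also without homogenate replicate 1 (adjusted p = 0.0620).

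The windows of Epcam, chr17:87635729-87635978 (plus strand), and Rab25, chr3:88548280-88548529 (minus strand), a small GTPase of epithelial cells, show what the Snail and Zeb hexamer looks like before genes that were low in the sorted cells. Capitals mark CACCTG, or CAGGTG where the match is on the opposite strand, and the other letters are the rest of the 250 bases before the RefSeq start (GRCm38.p6).
Epcam: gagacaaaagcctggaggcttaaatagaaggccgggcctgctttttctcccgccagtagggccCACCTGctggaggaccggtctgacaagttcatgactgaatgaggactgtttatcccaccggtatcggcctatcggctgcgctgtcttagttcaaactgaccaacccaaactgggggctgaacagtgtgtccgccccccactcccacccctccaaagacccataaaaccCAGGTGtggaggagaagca
Rab25: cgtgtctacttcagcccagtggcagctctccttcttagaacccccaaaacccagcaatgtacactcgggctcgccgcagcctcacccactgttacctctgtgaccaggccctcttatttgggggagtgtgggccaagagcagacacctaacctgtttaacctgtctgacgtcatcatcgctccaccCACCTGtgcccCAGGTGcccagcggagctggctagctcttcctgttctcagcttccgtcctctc
Both windows hold 2 matches, at 187 and 19 bases before the start in Epcam and at 64 and 53 bases in Rab25. Windows were present for 12 of the 18 epithelial genes. At least 1 match was in 9 of the 12, or 75%, where 19.4% of all genes with a window have 1. Match and call did not always go together. Crb3 holds 3 matches, the same ones in its overlapping windows, and was not called against homogenate in the main fit. With the mean over its probes it was called lower in myofibroblasts (limma adjusted p = 0.0139) and in fibroblasts (adjusted p = 0.0287). Cldn3 and Cldn18 hold 0 and were called lower than homogenate in both sorted groups. The general E-box CANNTG was in 83.3% of the 12 and 69.3% of all genes. The genes were listed as known targets, and no binding was measured. Epcam was at 0.0475 and 0.0407 in myofibroblasts, 0.0654 and 0.0567 in fibroblasts and 1.93 and 2.20 in homogenates, and Rab25 at 0.00798 and 0.0154, 0.00793 and 0.0117, and 0.188 and 0.143 in the same groups.

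Regulators that hold cells in an epithelial state and oppose Snail and Zeb did not move as 1 group between the sorted cells. Of 11 listed, 6 could be tested, 2 were called higher in myofibroblasts and 1 lower, where 9.22% and 8.02% of all tested genes were. Klf5, a Kruppel-like factor, was at 0.371 and 0.509 in myofibroblasts, 0.0674 and 0.0787 in fibroblasts and 0.368 and 0.374 in homogenates, and was higher in myofibroblasts than in fibroblasts at 2.58 (SE 0.27; limma adjusted p = 0.00522), a call held in all 19 alternative settings. Grhl1, a grainyhead-like factor, was at 0.124 and 0.147 in myofibroblasts, 0.0177 and 0.0115 in fibroblasts, both not well above background, and 0.917 and 0.602 in homogenates. It was at least 3.15-fold higher in myofibroblasts than in fibroblasts (limma adjusted p = 0.00549), with a difference of 0.52 that was not called under normexp correction (adjusted p = 0.138). Esrp1, a splicing factor of epithelial cells, was lower in myofibroblasts than in fibroblasts at -1.35 (SE 0.30; adjusted p = 0.0367), a call ended by 5 of the 6 omissions of an array.

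Against homogenate 5 of 9 tested regulators were called lower in myofibroblasts and 4 of 9 in fibroblasts, where 15.0% and 11.8% of all tested genes were. By limma or by an unadjusted p under 0.05, 0 were higher. Regulators that could not be tested between the sorted groups passed the filter here through homogenate alone, and could hardly come out higher. Without homogenate replicate 1 or 2 the 5 became 2 or 3. Grhl1 was at least 17.3-fold lower in fibroblasts (limma adjusted p = 4.82e-04). Elf5 was at least 9.18-fold lower in myofibroblasts (adjusted p = 0.00620) and at least 8.65-fold lower in fibroblasts (adjusted p = 0.00496), and Elf3 at least 9.40-fold (adjusted p = 4.56e-04) and at least 8.86-fold (adjusted p = 6.01e-04). These are ETS factors of epithelial cells. With normexp correction both Elf5 calls were lost, at -1.16 for myofibroblasts and -1.24 for fibroblasts. Klf5 was lower in fibroblasts at -2.35 (SE 0.27; adjusted p = 0.00347) and did not pass in myofibroblasts at 0.23 (SE 0.27; adjusted p = 0.568). Grhl1 at -2.46 and Grhl2 at -2.30 were lower in myofibroblasts (adjusted p = 0.00632 and 0.0386), and the Grhl2 call ended without either homogenate array or without myofibroblast replicate 2, and that of Grhl1 without homogenate replicate 1. The fifth was Esrp1 at -1.64 (SE 0.30; adjusted p = 0.0138), a call ended by 3 omissions of an array.

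Mesenchymal genes that these factors are known to raise, or that are used to read their activity, were more often higher than lower in myofibroblasts. Between the sorted groups 8 of 15 were called higher and 1 lower in myofibroblasts, with a median of 1.43, where 9.22% and 8.02% of all tested genes were. Without either homogenate or either myofibroblast array, 3 were called higher and 0 lower, since Axl, Col1a1, Col1a2, Fn1, Sparc and Pdgfra lost their calls. Postn, the matrix protein periostin, was at 43.7 and 39.5 in myofibroblasts, 0.201 and 0.0815 in fibroblasts and 2.29 and 1.88 in homogenates, a log2 difference of 8.34 between the sorted groups (SE 0.46; limma adjusted p = 0.00132). Tnc, which encodes tenascin C, differed by 7.004 (SE 0.28; adjusted p = 9.35e-04) and Sparc, a matrix glycoprotein, by 3.07 (SE 0.59; adjusted p = 0.0253). Itga5, which encodes the CD49e that the myofibroblast gate selects, differed by 4.01 (SE 0.35; adjusted p = 0.00324). The 1 lower gene was Pdgfra, the CD140a of the fibroblast gate, at -2.36 (SE 0.39; adjusted p = 0.0180). The counts of called genes above include these genes of the sort gates.

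Against homogenate 11 of the 15 were called higher in myofibroblasts and 7 higher and 1 lower in fibroblasts, with medians of 2.69 and 1.34. Of all tested genes 11.9% were called higher in myofibroblasts, and 8.09% higher and 11.8% lower in fibroblasts. Without either homogenate array or without myofibroblast replicate 2 the 11 became 7, and without either homogenate array the 7 became 3. In myofibroblasts Tnc led at 8.75 (limma adjusted p = 1.19e-04), before Col1a1 at 6.83, Col1a2 at 4.83 and Sparc at 4.42. In fibroblasts Col1a1 was higher at 4.29, Col1a2 at 3.30 and Pdgfra at 2.80, and Postn lower at -4.02 (adjusted p = 0.00331).

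**Figure D4:**
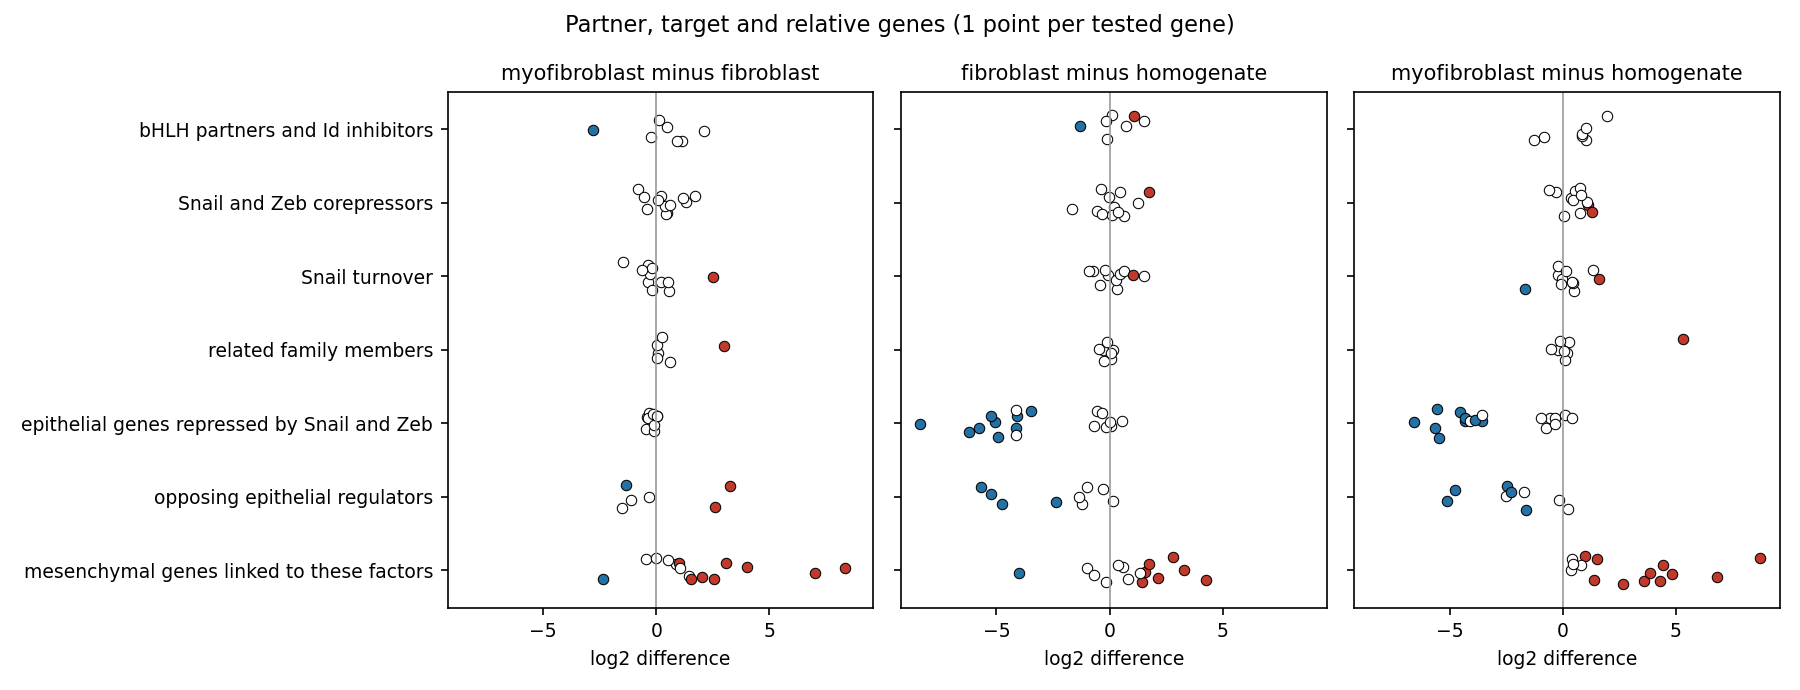
Log2 difference (horizontal axis) of each tested gene of the 7 lists in the 3 comparisons. Each point is 1 gene, red where called higher, blue where called lower and open where not called, and the vertical scatter within a list has no meaning. Of the epithelial genes 9 of 18 were called lower against homogenate in each sorted group and 0 of 10 between the sorted groups, and the mesenchymal genes lie mostly to the right of 0.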

How the data were processed

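Transcripts were measured on 6 1-colour Agilent arrays (Cy3), 2 each of sorted myofibroblasts, sorted fibroblasts and lung homogenate, grouped by the submitters' labels. Per the file headers, Agilent Feature Extraction 12.0.3.1 made the deposited spot intensity values, with background and spatial trend subtracted and small values replaced by surrogates. The authors' normalized intensity table, whose scaling method was not found in the labels or headers, served as an alternative. Values here are log2 of the processed signal minus that of the array's 75th percentile, with spots of a probe averaged, outlier flags dropped and the brightest probe standing for a gene. Of the probes, 32990 were named through RefSeq accessions and 23615 were not. A gene was tested where both arrays of at least 1 group compared were well above background. One limma fit (3.58.1, R 4.3.3) took all 6 arrays, with Benjamini-Hochberg adjustment per comparison and 3 residual degrees of freedom, 5.57 with the prior. The fit was tested on simulated data. Promoter windows came from RefSeq (GRCm38.p6). The members and gene lists were chosen with earlier results of these data known. The genes named from a list and comparison are up to 4 called members with the largest differences, or the largest tested one where none was called. Cdh1, Rab25, Pdgfra between the sorted groups, Esrp1 against homogenate in myofibroblasts, and Klf5 in myofibroblasts against homogenate were named after their values were seen. Alternatives were background correction, scaling, filter, probe rule, arrays in the fit, variance model, threshold, replicate block and leaving out each array. The same replicate numbers correlated at 0.07, 0.04 and -0.01 between groups over 13999 genes. These correlations cannot exclude shared animals or handling. The main fit did not pair the arrays, and the replicate block served as an alternative. The number of arrays limits the precision.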

Additional observations from a re-analysis of the deposited data

How the results depend on the processing

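Of the values recomputed under 19 alternatives, 614 kept direction and side of the threshold, 24 gained a call, 35 lost one and 29 changed sign, and the cause was not tested. Genes called between myofibroblasts and fibroblasts numbered 2758, but 1142 with array weights, 1264 with only the 4 arrays compared, 710 at a threshold of 0.01, 4751 at 0.1 and 1030 to 5738 leaving out an array (lowest without homogenate replicate 1, highest without fibroblast replicate 2). For fibroblasts against homogenate the 3392 became 2027 when all 4 arrays had to be above background, 1726 at 0.01 and 1544 to 6159 leaving out an array. For myofibroblasts against homogenate the 4612 became 7794 with weights, 7391 with 4 arrays, 2073 at 0.01 and 1837 to 7212 leaving out an array. Of the 8 genes, the 1 called between the sorted groups became 2 in the authors' table, 2 with normexp, 3 with quantile normalization, 3 at 0.1, 2 with a variance trend and 1 to 2 leaving out an array. The 6 for fibroblasts against homogenate became 3 at 0.01 and 3 to 6 leaving out an array, and the 3 for myofibroblasts became 1 with the stricter background filter, 5 with weights and 2 to 4 leaving out an array. The authors' table shifted the median of all genes by -0.41 between the sorted groups and by -0.50 for myofibroblasts against homogenate, and median scaling by 0.14, 0.40 and, for fibroblasts, 0.27.

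Sign changes concerned values that were called neither before nor after, except Prrx2 in fibroblasts against homogenate, which was called with the mean over probes (limma adjusted p = 0.0140). Between myofibroblasts and fibroblasts, Prrx1 turned to -0.36 in the authors' table, -0.59 with the mean over probes and -0.34 with quantile normalization, with -0.15 to 0.25 leaving out an array. Prrx2 turned to -0.25 and -0.16 (authors' table, quantile), Snai1 to -0.17 (authors' table; -0.24 to 0.73 leaving out an array), and Zeb1 to -0.38 (authors' table), -0.36 (mean over probes) and -0.0010 (normexp), with -0.22 to 0.27 leaving out an array. Against homogenate in fibroblasts, Prrx2 turned to 1.19 (mean over probes) and 0.20 (median scaling), with -0.19 to 0.0708 leaving out an array. Against homogenate in myofibroblasts, Prrx2 turned to -0.39 (authors' table) and -0.32 (quantile), with -0.0510 to 0.26 leaving out an array, Zeb1 to -0.22, its second probe to -0.45 (-0.23 to 0.33 leaving out an array) and Zeb2 probes A_52_P526372 and A_52_P596008 to -0.0353 and -0.12, all in the authors' table, and with quantile normalization Zeb2 to -0.0756 and A_52_P596008 to -0.24. Paralogue differences turned for Snai1 minus Snai2 (-0.66) and Twist1 minus Twist2 (-1.40) in fibroblasts against homogenate with normexp, where Snai1 and Twist1 were not well above background in homogenate, for Zeb1 minus Zeb2 in myofibroblasts against homogenate with quantile normalization (0.43), and for Prrx1 minus Prrx2 between the sorted groups, which ran from -0.29 to 0.0690 leaving out an array. With the replicate block, 2227, 3219 and 4044 genes were called in the order above, and 1, 5 and 3 of the 8; Zeb2 in fibroblasts against homogenate (adjusted p = 0.0580, limma) and the dimmer Prrx2 probe between the sorted groups (adjusted p = 0.0765) lost their calls.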
